A study of Mus musculus with 12 samples.

Results

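MaLR copies that lie under an m6A interval are described here. A copy is a locus of the repeat family LTR/ERVL-MaLR in the deposited table of repeat loci, and it was kept where it shared at least 1 bp with any interval of the deposited table of m6A intervals, whatever its signal. This gave 3519 of 485114 MaLR copies, 0.725%, where 0.947% of all 4929385 repeat loci lay under an interval. The study isolated chromatin-associated RNA of E14TG2a cells, a mouse embryonic stem cell line, and enriched fragments that carry m6A with an antibody, keeping part of the fragments as input. The groups are ΔcIDR cells (Alkbh5-ΔcIDR, labelled Alkbh5 del-cIDR), KO cells (Alkbh5-/-) and WT cells, all of that 1 line and all grown with LIF, PD0325901 and CHIR99021. Each group has 2 libraries in the tables. The column names say WT, KO6 and KI, so the KI columns were read as ΔcIDR by elimination, and both KO libraries may come from 1 clone, since what the 6 stands for is not given.

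m6A is a methyl mark on adenosine in RNA. ALKBH5 is an enzyme that removes that mark, and IDR stands for intrinsically disordered region, a stretch of protein without a fixed fold. MaLR elements are non-autonomous LTR retrotransposons of mammals that are related to ERVL, and they carry an internal region between a pair of long terminal repeats (LTRs) but no genes for their own movement. Most copies in a genome are solitary LTRs or fragments, and in mouse oocytes and early embryos the LTRs of the MT and ORR1 groups of MaLR are known as promoters. The table gives the family alone, with no subfamily, strand or gene, so which copies are MT or ORR1 is not given here.

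Values in both tables are a signal: the reads of a place were multiplied by a factor of that library, chosen so that the m6A-modified spike-in RNA comes out equal everywhere. In the table of repeat loci, each read was worth 1.45 to 3.33 units, the libraries held 20922839 to 26267351 reads in repeat loci, and 162236 to 180790 of these lay in the MaLR copies under intervals. The factor rests on 814 to 1870 spike-in reads, and an unmodified spike-in had more reads (1729 to 5127) in each of the 6 libraries. Whether these are immunoprecipitated or input libraries is not stated: the labels of input and immunoprecipitated samples alike speak of a normalized m6A matrix and a normalized repeat expression matrix, and the columns were read as immunoprecipitated. Both tables hold the same 6 column names, and the worth of a read in one over that in the other was 19.9 in all 6 libraries. With 0 columns read as input, RNA level, methylation and copy number cannot be told apart in any value below, nor can fewer cells with a transcript and less of it per cell. Nothing in the labels says that replicates were separate cultures, so p-values measure only the spread between these libraries. How reads that align to several near-identical copies were counted is not given in the sources used here, and the level of any 1 copy is uncertain to that extent. A copy is called higher or lower below where limma, fitted on log2(signal + 1) over all tested repeat loci, gave a Benjamini-Hochberg adjusted p under 0.05, and SE is the standard error of that fit unless said otherwise.

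Long MaLR copies were under intervals far more often than short ones. Of copies of 1000 bp or more, 1054 of 6270 lay under an interval, 16.8%. The share was 1.03% for copies of at least 400 but under 1000 bp (288 of 27860). It was 0.565% for copies of at least 200 but under 400 bp (1187 of 210173) and 0.411% for those under 200 bp (990 of 240811). Of their bases, intervals covered 8.12%, 0.627%, 0.204% and 0.275% in these 4 classes, longest first. Over repeat loci of all families the covered shares of the same classes were 7.26%, 0.646%, 0.371% and 0.402%. These are counts of places with no replicate, so they were not tested.

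The share did not climb evenly with length. In bins of 50 bp it was 37.0% for copies of 1051 to 1100 bp (779 of 2106), between 4.92% in the bin below and 7.51% in the bin above. Other peaks stood at 1751 to 1800 bp, with 46 of 196 copies (23.5%), and at 2101 to 2150 bp, with 44 of 140 (31.4%). The most frequent length of MaLR copies between 300 and 500 bp was 395 bp, and between 1000 and 1200 bp it was 1095 bp, both over all copies and over those under intervals.

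**Figure D1:**
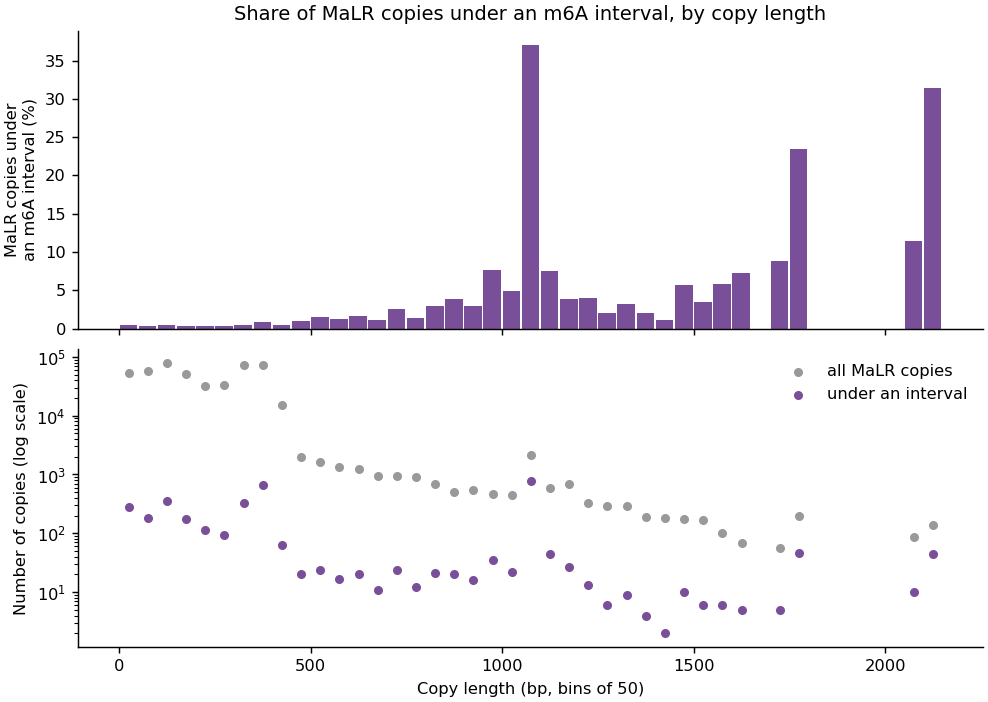
Share (upper panel, %) and number (lower panel, log scale) of MaLR copies under an m6A interval by copy length in bins of 50 bp, for bins with at least 50 copies. Purple bars and points are copies under an interval and grey points all copies. The share peaks at 37.0% for copies of 1051 to 1100 bp and reaches 31.4% at 2101 to 2150 bp, while no bin up to 450 bp passes 1%.

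Copies within 6 bp of the 1095 bp peak, 1089 to 1101 bp long, were looked at in their surroundings, a window chosen after the lengths were seen. Of these, 690 of 1385 lay under an interval (49.8%), and intervals covered 28.3% of their bases. A complete element was taken as such a copy with a MaLR copy of 381 to 409 bp within 5 bp on each side, the arrangement of an internal region between its LTRs, although the table does not say which copy is which. Among copies with both flanks 615 of 1065 were under an interval (57.7%). With 1 flank it was 61 of 208 (29.3%), and with 0 flanks 14 of 112 (12.5%).

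Within the 1065 complete elements the intervals lay on the long copy and not on the outer flanks. At positions inside the long copy 21.9% to 38.9% of elements were covered, most at its middle. Coverage was 15.3% and 16.3% at the flank positions next to the long copy, and 0.282% to 0.563% at the outer positions before it. Only 403 of 2111 flanking copies touched an interval (19.1%), against 57.7% of the long copies between them. The long copies were thinly read: those under an interval had a median of 5.5 reads per library, those under none 1.17, and the flanks 0.5.

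**Figure D2:**
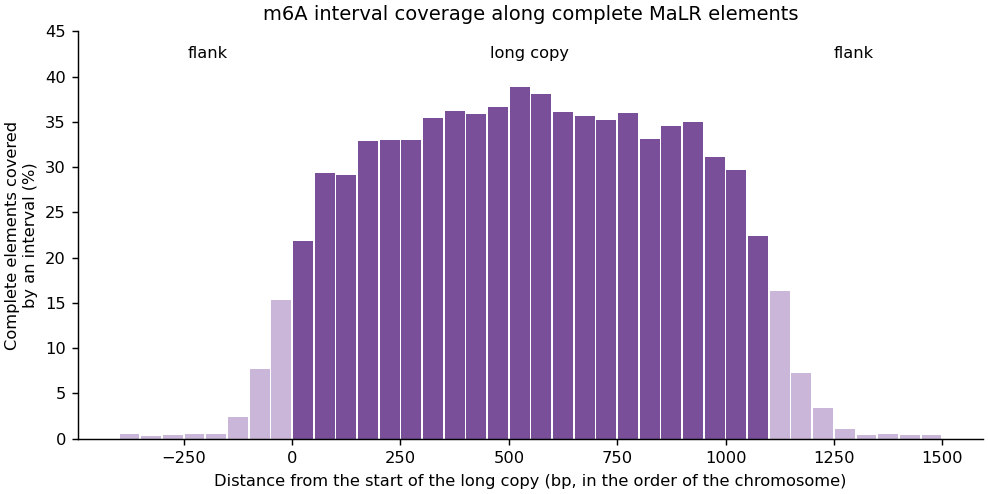
Share of 1065 complete MaLR elements covered by an m6A interval (%) against distance from the start of the long copy (bp, read in chromosome order since no strand is given). Dark bars lie in the long copy and pale bars in the flanking copies. Coverage reaches 38.9% at the middle of the long copy and is under 1% at the outer ends of both flanks.

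The intervals covered a median of 46.3% of each copy. They covered at least 50% of 1658 copies and the whole of 636. The signal of a copy is that of the whole locus, not of the part under an interval alone. Copies under 200 bp were covered over a median of 97.2% of their length, and those of at least 200 but under 400 bp over a median of 28.5%. At the edge of the rule, the 74 copies that shared 1 to 5 bp with an interval had a median of 0.667 reads per library, and the 113 MaLR copies that missed one by at most 5 bp had 0.833. On the side of the intervals, 2952 of 74299 touched a MaLR copy (3.97%), and 1932 of these were at least 50% MaLR by length. Other repeats shared the intervals: 550 of the copies were under an interval with a simple repeat, 536 with a SINE of the Alu class, 193 with a LINE-1 copy and 77 with an ERVL copy.

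Along the genome the copies lay on every chromosome with at least 1000 MaLR copies, but not evenly. Among these chromosomes the share under intervals ran from 1.15% on chromosome 2 to 0.105% on Y. The 3 Mb from 175 to 178 Mb of chromosome 2 held 153 of the copies, 22.8% of the 671 MaLR copies there, so that 0.138% of all MaLR copies made up 4.35% of those under intervals. Windows of 1 Mb outside it with at least 50 MaLR copies and at least 10% of them under intervals were 147 to 148 Mb of chromosome 4 (17 of 113), 66 to 67 Mb of chromosome 13 (31 of 236), 22 to 23 Mb of chromosome 17 (10 of 78) and 15 to 16 Mb of chromosome 5 (8 of 73). The copies of the chromosome 2 block had a median length of 401 bp and 3.33 reads per library. Their summed signal was 38466 and 37855 units in ΔcIDR, 22702 and 16912 in KO and 28078 and 30183 in WT.

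Lying under an interval did not mean being read in the repeat table. Of the 3519 copies, 598 (17.0%) had 0 reads in all 6 libraries. These were short, at a median of 116 bp against 395 bp for copies with reads. Another repeat locus overlapped 49.7% of them, against 12.6% of the copies with reads, and whether the counting dropped reads shared by loci was not tested. The intervals above the unread copies were themselves read, with a median of 21.2 reads per library, against 18 for the intervals above copies with reads.

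Signal was concentrated in few copies. The 10 strongest held 12.2% of the signal of all 3519 copies, and the 100 strongest 48.9%. By length, 55.3% lay in copies of 1000 bp or more, 17.4% in those of at least 400 but under 1000 bp, 21.6% in those of at least 200 but under 400 bp and 5.71% in those under 200 bp. The share of the longest class was 54.8% in ΔcIDR, 56.3% in KO and 55.1% in WT.

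The copy with the highest mean signal, chr5:108225195-108226503 (GRCm39, 1309 bp), had 9566 and 8257 units in ΔcIDR, 5796 and 3927 in KO and 6009 and 6714 in WT. The next was chr4:34590395-34592181 (1787 bp), with 9046 and 8593 units in ΔcIDR, 4727 and 3416 in KO and 5284 and 5590.0 in WT. In both, ΔcIDR was highest and KO lowest with no overlap between groups, which is also the order of the median locus. Another of the 6 strongest, chr17:71106690-71107817 (1128 bp), had 8025 and 8781 units in ΔcIDR, 2927 and 2042 in KO and 5312 and 5448 in WT. The groups stood in the same order. Its KO to WT difference passed the test (log2 −1.14 ± 0.30 (SE), limma adjusted p = 0.011), while those of the first copies did not (limma adjusted p = 0.55 and 0.52). The remaining 3 were chr10:78900520-78901980, chr13:74593830-74594987 and chr4:108440777-108442017, all over 1000 bp long.

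Per kilobase of copy, short copies reached the highest signal of all. Whether reads that run past the end of a copy count in full is not given. Values per kb of very short copies are therefore not directly comparable with those of long ones. The 45 bp copy chr6:87623332-87623376 averaged 7696 units per kb over the 6 libraries and the 343 bp copy on the contig JH584304.1 6747 units per kb. Intervals covered 100% of the 45 bp copy and 8.45% of the 343 bp copy. The top of the class of at least 400 but under 1000 bp was chr15:75751639-75752627 at 4026 units per kb, and that of the longest class was chr5:108225195-108226503 at 5127. The median copy was far lower, at 4.22, 34.0, 99.4 and 15.5 units per kb in the 4 classes from short to long.

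The 3 longest copies under intervals, 2149, 2145 and 2144 bp long, were not ordered alike. The longest, chr17:88578849-88580997, had 663.5 and 674.5 units in ΔcIDR, 249.9 and 158.2 in KO and 467.8 and 554.6 in WT. It was lower in KO than in WT (log2 −1.35 ± 0.35 (SE), limma adjusted p = 0.0089). The second, chr6:117922073-117924217, had 556.8 and 607.4 units in ΔcIDR, 1004 and 702.4 in KO and 472.4 and 493.2 in WT. Its KO values lay above all others, but the difference from WT did not pass (limma adjusted p = 0.2). The other, chr7:101591938-101594081, had 690.2 and 837.5 units in ΔcIDR, 659.3 and 455.7 in KO and 782.7 and 731.3 in WT, where ΔcIDR and WT overlapped and both KO values lay below them (limma adjusted p = 0.55 between KO and WT).

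Summed over all copies under intervals, the deposited signal was 540920 and 543123 units in ΔcIDR, 355812 and 252296 in KO and 379367 and 400396 in WT. The order of the groups is therefore ΔcIDR, WT, KO, but all repeat loci shift the same way: the median tested locus differed on the deposited scale by log2 −0.32 between KO and WT and by 0.35 between ΔcIDR and WT. As a share of all reads in repeats, a measure free of the spike-in factor, the copies took 0.775% and 0.784% in ΔcIDR, 0.688% and 0.745% in KO and 0.748% and 0.746% in WT. Both ΔcIDR values lay above all others and both KO values below WT, the nearer of them by less than the gap between the KO replicates. With 2 libraries a group an exact permutation test cannot go below a two-sided p of 1 in 3, so no p is given for such sums. Below, differences are given on the deposited scale and also after centring each library on its own median over all tested loci.

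Between KO and WT, most MaLR copies that passed the test were lower in KO. Of the copies under intervals, 1396 of 3519 (39.7%) had the mean signal of 20 units needed to be tested, against 8.79% of all repeat loci. Among these, 15 were higher and 82 lower in KO, 6.95% in all, where 2.65% of all 433487 tested loci were called (0.164% higher, 2.48% lower). After centring, 43 were higher and 84 lower (9.10%, over a background of 3.24%, 1.22% higher and 2.02% lower), and 88 copies were called on both scales. Tested loci of all families under intervals were called at 5.52% on the deposited scale and at 8.89% after centring. The median tested copy changed by log2 −0.39, which is −0.076 ± 0.055 (SE over libraries) relative to the median of all tested loci. Scaling to ERCC spike-in reads moved the median of all loci to 0.077 and gave a more even split, 58 higher and 70 lower. The count on the deposited scale depended on single libraries, at 323 and 61 when KO replicate 1 or KO replicate 2 was left out, 18 and 15 for WT replicate 1 or 2, and 62 and 60 for ΔcIDR replicate 1 or 2. With centring and 1 library left out together, a pairing of settings chosen after seeing the data, it was 47 and 48 for KO replicate 1 or 2 and 57 and 47 for WT replicate 1 or 2.

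The named copies higher in KO had few reads in WT. All 6 reached the mean of 20 units only through KO, their ΔcIDR and WT libraries averaging less, so they could be tested only because KO was high. The same held for 6 of the 15 copies called higher, while 0 of the 82 called lower passed only through WT. The 788 bp copy chr5:68349484-68350271 had 26.7 and 25.6 units in ΔcIDR, 234.2 and 229.3 in KO and 13.9 and 9.82 in WT. Both KO libraries lay above all others, and the difference from WT was log2 4.20 ± 0.53 (SE), limma adjusted p = 1.7e-11. It stayed called whichever library was left out, which held for 1 of the 6 named here. A neighbour that begins 277 bp after its end, chr5:68350548-68350918 (371 bp), had 13.3 and 3.20 units in ΔcIDR, 66.9 and 66.8 in KO and 4.63 and 0 in WT. With 2 reads in WT, its KO to WT ratio was 28.9, with a counting interval of 7.73 to 242 (limma adjusted p = 0.034).

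A second pair lay on chromosome 4, where a 1066 bp and a 394 bp copy abut, chr4:15354690-15355755 and chr4:15355756-15356149, under 1 interval. The longer, named for its difference between ΔcIDR and KO, had 43.3 and 41.6 units in ΔcIDR, 533.4 and 480.4 in KO and 55.6 and 68.7 in WT (log2 3.01 ± 0.42 (SE), limma adjusted p = 3.1e-09). The shorter had 30.0 and 6.39 units in ΔcIDR, 133.8 and 88.5 in KO and 6.95 and 0 in WT. The interval covered 82.4% of the longer copy and 9.14% of the shorter. Both were higher in KO, and with 3 reads in WT the ratio of the shorter was 32.0 (counting interval 10.7 to 157). The copy chr9:50074458-50075554, whose 1097 bp place it at the length peak, had 6 and 3 reads in ΔcIDR, 57 and 68 in KO and 2 and 8 in WT (log2 3.30 ± 0.68 (SE), limma adjusted p = 4.2e-04). Of the other named copies higher in KO, chr4:76037987-76039502 (1516 bp) changed by log2 4.33 and chr5:14991383-14993151 (1769 bp) had 61 KO reads against 2 WT reads. Intervals covered 13.7% of the 1516 bp copy and 37.9% of the 1769 bp copy.

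Of the named copies lower in KO, the most deeply read was the 823 bp copy chr12:105081419-105082241. It had 1307 and 1467 units in ΔcIDR, 96.4 and 58.1 in KO and 590.5 and 537.4 in WT, from 851 reads in ΔcIDR, 89 in KO and 474 in WT. The 3 groups did not overlap, with KO lowest (log2 −2.90 ± 0.35 (SE), limma adjusted p = 8.3e-13). The call held without any 1 library. The 1084 bp copy chr10:8027201-8028284 had 120.0 and 105.5 units in ΔcIDR, 9.84 and 5.81 in KO and 83.4 and 71.2 in WT and was also called in every fit that left out 1 library (log2 −3.18 ± 0.53 (SE), limma adjusted p = 2.5e-06). The 4 other named copies were thinly read in KO. In the 206 bp copy chr12:23281009-23281214 KO had 2 reads against 31 in WT, a ratio of 0.0532 (counting interval 0.00617 to 0.209). In chr11:87861348-87861523 KO had 2 reads against 27. The copies chrX:59850773-59851754 and chr14:73065432-73066083 changed by log2 −3.86 and −2.93. Each of these 4 lost its call when 1 library was left out.

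**Figure D3:**
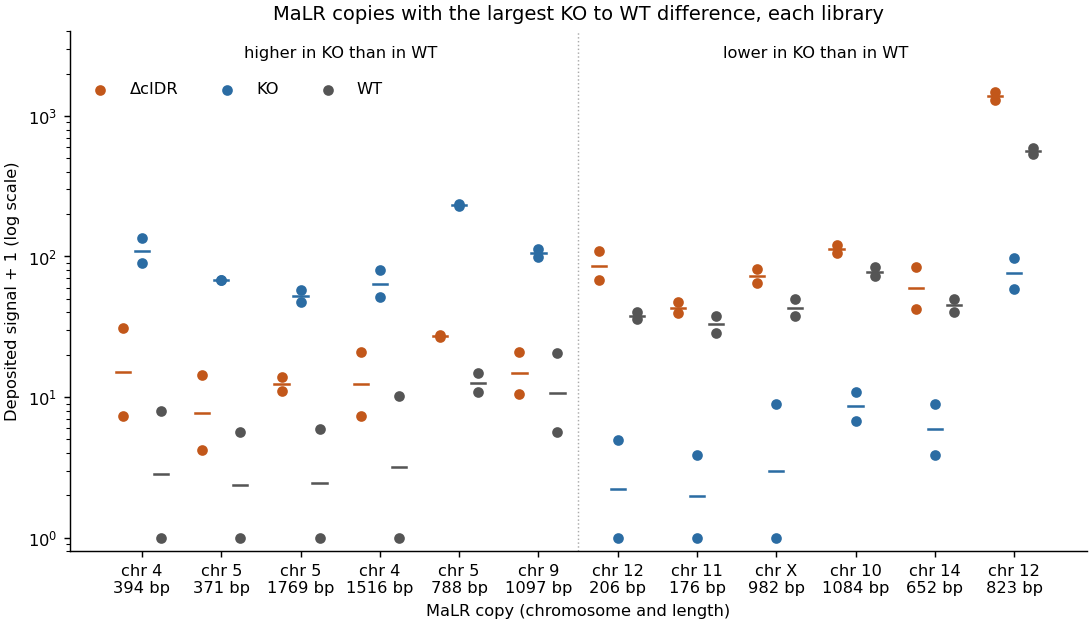
Deposited signal plus 1 (log scale) of the 6 MaLR copies with the largest called increase and the 6 with the largest called decrease in KO against WT, labelled by chromosome and length. Points are libraries and short lines group means of the log values. The KO points overlap neither ΔcIDR nor WT in any of the 12 copies, which the rule that chose them requires for KO and WT.

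Some called copies were neighbours. Of the copies called lower, 19 of 82 had another such copy within 10 kb, as had 4 of the 15 called higher, so these counts are not counts of separate transcripts. Without regard to the test, 128 tested copies had both KO libraries above both WT libraries and 605 had both below, 52.5% in all, where 41.7% of all tested loci did not overlap. After centring these were 308 and 460 (55.0%, over 47.9% of all tested loci).

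By length, the KO libraries lay lowest in the middle classes, although differences between classes were not tested. Relative to all tested loci, the median log2 difference from the WT mean of copies of at least 200 but under 400 bp was 0.081 and 0.056 in ΔcIDR, −0.24 and −0.12 in KO and −0.039 and 0.039 in WT. Both KO libraries lay below all others. For copies of at least 400 but under 1000 bp the medians were 0.051 and 0.11 in ΔcIDR, −0.18 and −0.089 in KO and −0.00099 and 0.00099 in WT, with KO again below all others. Copies of 1000 bp or more had overlapping groups, at −0.0017 and 0.069 in ΔcIDR, −0.052 and 0.038 in KO and 0.00022 and −0.00022 in WT. Those under 200 bp had 0.015 and 0.018 in ΔcIDR, −0.087 and −0.027 in KO and 0.00088 and −0.00088 in WT, with KO lowest by a smaller margin.

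As differences between KO and WT, these come to −0.17 ± 0.075 (SE over libraries) for the class from 200 bp, −0.11 ± 0.046 for that from 400 bp, −0.0018 ± 0.045 for the longest and −0.042 ± 0.030 for the shortest. Loci of all families under intervals gave −0.17 ± 0.054, −0.090 ± 0.059, 0.11 ± 0.20 and −0.14 ± 0.074 in the same 4 classes. The middle classes thus had like values in MaLR and in all families together. MaLR copies outside intervals of at least 200 but under 400 bp stood at 0.012 ± 0.0077. In calls, 4 copies from 200 bp were higher and 35 lower of 508 tested, 3 and 16 of 196 from 400 bp, 8 and 25 of 494 from 1000 bp, and 0 and 6 of 198 under 200 bp. These are 7.68%, 9.69%, 6.68% and 3.03% of those tested, beside 8.69%, 10.1%, 3.48% and 6.07% of loci of all families under intervals in the same classes and 2.65% of all tested loci. The copies at the 1095 bp length peak, 240 of them tested, stood at 0.0060 ± 0.036.

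MaLR copies that shared an interval with an ERVL copy had a higher median in KO, though few passed the test singly. ERVL copies under intervals had a relative median of 0.87 ± 0.13 over 1222 tested copies in KO against WT. The 35 tested MaLR copies in an interval with an ERVL copy had −0.11 and 0.067 in ΔcIDR, 0.36 and 0.49 in KO and −0.021 and 0.021 in WT, so that both KO libraries lay above all others. Their KO to WT difference was 0.50 ± 0.071, against −0.088 ± 0.054 for the 1361 tested copies without an ERVL partner. Of the 35, 1 was called higher and 0 lower by limma (2.86%, beside 2.65% of all tested loci), and 3 had an unadjusted p under 0.05 (8.57%, beside 14.7%). Whether the reads came from transcripts that run through both repeats was not tested.

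**Figure D4:**
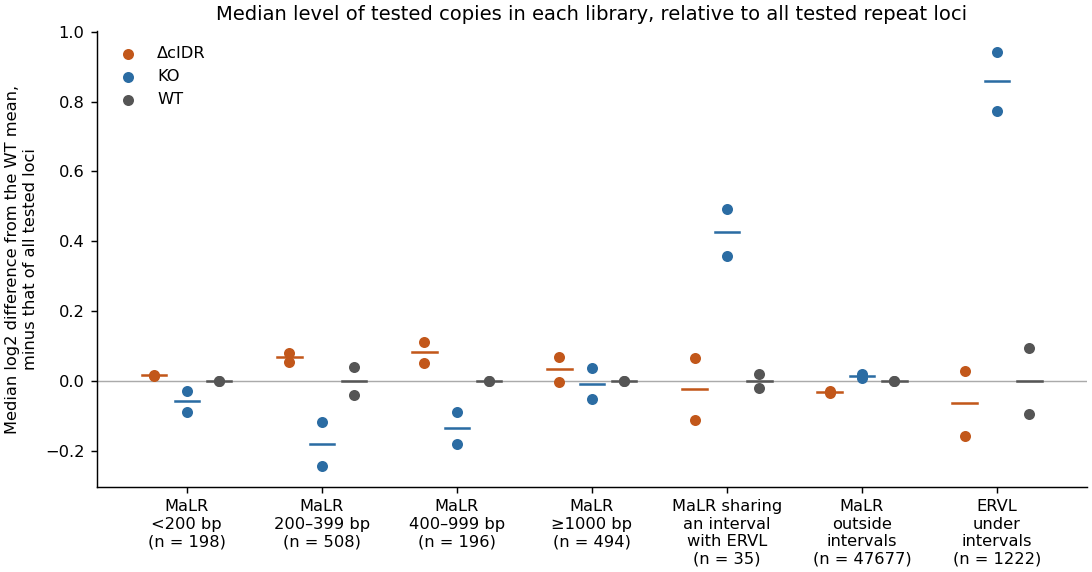
Median log2 difference from the WT mean in each library, minus that of all tested repeat loci, for tested MaLR copies under intervals by length class, for those sharing an interval with an ERVL copy, for MaLR copies outside intervals and for ERVL copies under intervals. Points are libraries and short lines group means. KO lies at −0.24 and −0.12 for MaLR copies of at least 200 but under 400 bp and at 0.36 and 0.49 for those that share an interval with ERVL.

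The chromosome a copy lay on also moved with its KO value. After centring, the median KO to WT difference over all tested repeat loci was 0.34 on chromosome 6 and 0.30 on chromosome 8, and between −0.12 and 0.075 on the other autosomes and X. The MaLR copies under intervals had medians of 0.24 on chromosome 6 (62 tested copies), 0.12 on chromosome 8 (74) and 0.15 on chromosome 11 (52). They were 0.065 on 18, 0.061 on X and 0.042 on 16, and below 0 on the others, down to −0.26 on chromosome 14. Copy number was not measured and its part was not tested. Off chromosomes 6, 8 and 11, 13 copies were called higher and 78 lower of 1208 tested in the same fit (7.53%, where 2.91% of all tested loci off these chromosomes were called). With these 3 chromosomes, the highest for all loci, taken out of the fit for members and loci alike, the relative median was −0.070, close to the −0.076 over all chromosomes. The 66 tested copies of the chromosome 2 block had a KO to WT difference of −0.30 ± 0.043 relative to all loci, with 0 called higher and 1 lower by limma (1.52%, beside 2.65% of all tested loci). At an unadjusted p under 0.05 there were 19 (28.8%, beside 14.7%).

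**Figure D5:**
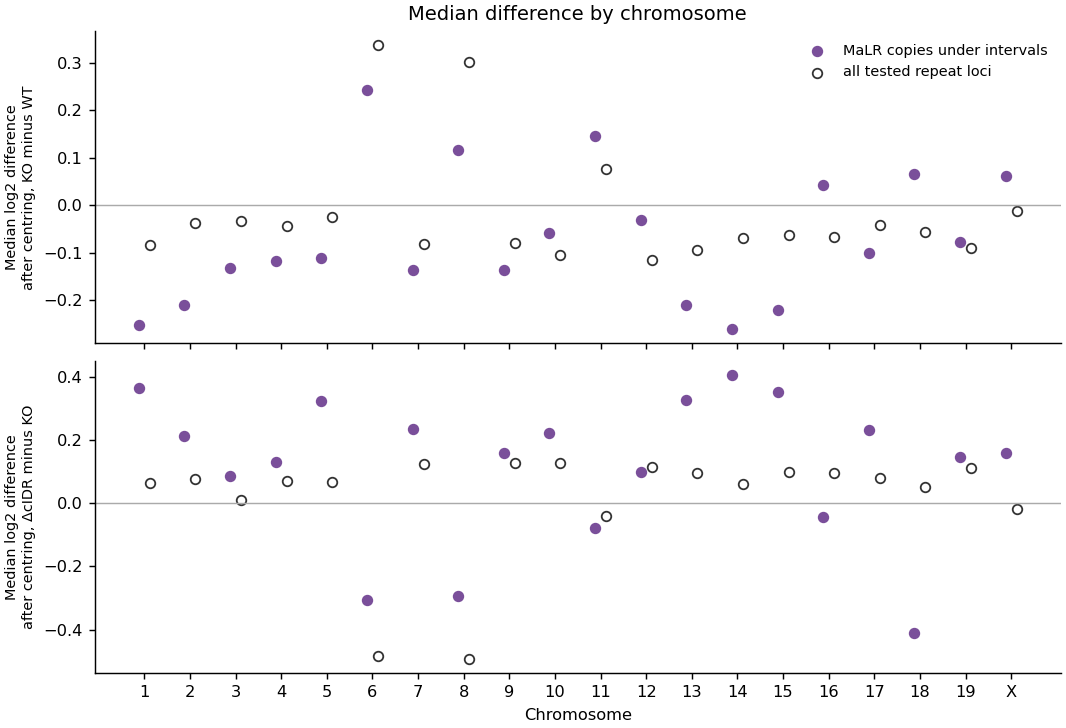
Median log2 difference after centring by chromosome, KO minus WT in the upper panel and ΔcIDR minus KO in the lower, for tested MaLR copies under intervals (filled) and all tested repeat loci (open). Among all loci chromosomes 6 and 8 stand apart in both panels, at 0.34 and 0.30 for all loci in KO minus WT.

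Between ΔcIDR and WT almost no single copy passed. Of the 1396 tested copies 0 were higher and 2 lower in ΔcIDR by limma (0.0687% of all tested loci were called, 0.0457% higher and 0.0231% lower), while 203 had an unadjusted p under 0.05 (14.5%, beside 9.79% of all tested loci). edgeR on the reads behind the signal called 0 higher and 1 lower on the same scale, and 7 higher and 3 lower with TMM factors. After centring 1 was higher and 3 lower, over a background of 0.0851% (0.036% higher, 0.0491% lower). Tested loci of all families under intervals were called at 0.295% on the deposited scale and at 0.404% after centring. On the deposited scale 753 tested copies had both ΔcIDR libraries above both WT libraries and 83 both below, 59.9% in all, beside 48.3% of all tested loci. After centring these were 384 and 256, 45.8% beside 37.3%. The median tested copy differed by log2 0.41, or 0.055 ± 0.0100 (SE over libraries) relative to all loci. Leaving out either KO replicate, which only enters the shared estimate of the spread, raised the number of calls, and nearly all were then higher in ΔcIDR. Both calls were lost when either WT replicate was left out. The relative median stayed at 0.055 without either KO replicate and was 0.066 and 0.084 without WT replicate 1 or 2. The centred count was 7 and 8 without ΔcIDR replicate 1 or 2 and 2 without WT replicate 2.

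Both called copies lay on chromosome 18. The 270 bp copy chr18:50929442-50929711 had 140.0 and 137.5 units in ΔcIDR, 271.6 and 210.4 in KO and 412.2 and 515.3 in WT. The 1332 bp copy chr18:50824009-50825340 had 386.8 and 303.7 units in ΔcIDR, 531.4 and 399.1 in KO and 829.0 and 1006 in WT. In both, every ΔcIDR value lay below every KO value and every KO value below every WT value, against the direction of the median locus. Intervals covered 7.41% of the 270 bp copy and 20.5% of the 1332 bp copy. Their differences from WT were log2 −1.72 ± 0.37 (SE), limma adjusted p = 0.0094, and log2 −1.41 ± 0.34 (SE), limma adjusted p = 0.046. Neither call held when either ΔcIDR replicate or either WT replicate was left out, with the replicate block or with a minimum mean of 5, and that of the longer copy was also lost with edgeR on the deposited scale. The copy with the next smallest p, chr18:50825913-50826723, is a neighbour of the second, beginning 573 bp after its end, and had 113.4 and 76.7 units in ΔcIDR, 246.0 and 143.7 in KO and 215.4 and 346.0 in WT (log2 −1.54 ± 0.39 (SE), limma adjusted p = 0.086).

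Between ΔcIDR and KO more copies were called than in the other comparisons. On the deposited scale 431 tested copies were higher and 23 lower in ΔcIDR, 32.5% of those tested, where 19.1% of all tested loci were called (18.4% higher, 0.712% lower). The median of all tested loci was itself shifted by log2 0.66. After centring 192 were higher and 94 lower (20.5%, background 10.1%, 5.67% higher and 4.47% lower). For tested loci of all families under intervals the called shares were 26.02% on the deposited scale and 19.11% after centring. The centred share of the MaLR copies was thus close to that of all families under intervals. On the ERCC scale, where the median of all loci was −0.37, the majority turned, with 93 higher and 261 lower. Relative to all loci the median copy stood 0.13 ± 0.055 (SE over libraries) higher in ΔcIDR. By length the relative median was 0.040 ± 0.030 under 200 bp, 0.22 ± 0.065 from 200 bp, 0.23 ± 0.055 from 400 bp and 0.065 ± 0.057 from 1000 bp. Loci of all families under intervals gave 0.34 ± 0.056, 0.18 ± 0.057, 0.10 ± 0.072 and −0.30 ± 0.27 in the same 4 classes. Both ΔcIDR libraries lay above both KO libraries in 893 copies and below in 103 (71.3%, beside 58.4% of all tested loci), and after centring in 552 and 347 (64.4%, beside 53.9%). The calls numbered 111 without ΔcIDR replicate 1, 148 without ΔcIDR replicate 2 and 297 without KO replicate 2, and after centring 130 and 125 without KO replicate 1 or 2. Of the calls, 22 of the 431 higher passed the minimum signal only through ΔcIDR and 6 of the 23 lower only through KO, among them 3 of the 6 named in each direction. Another copy called in the same direction lay within 10 kb for 133 of the 431 higher and 4 of the 23 lower. These counts are therefore not counts of separate transcripts either. This comparison and that of KO with WT share the KO libraries, so what is low in KO appears in both.

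Among the copies named for a rise in ΔcIDR over KO, chr12:105081419-105082241, with the values given above, differed by log2 4.19 ± 0.35 (SE), limma adjusted p = 2.6e-29. The 1494 bp copy chr16:37294892-37296385 had 400.1 and 489.1 units in ΔcIDR, 35.4 and 11.6 in KO and 171.4 and 132.5 in WT. The 3 groups did not overlap, and ΔcIDR stood above KO (log2 4.37 ± 0.42 (SE), limma adjusted p = 1.2e-21) but not past the threshold above WT (log2 1.55 ± 0.42 (SE), limma adjusted p = 0.15). An interval covered 13.4% of this copy, and that interval differed by log2 2.28 ± 0.53 (SE) between ΔcIDR and KO. The other 4 were chr12:23281009-23281214, chrX:59850773-59851754, chr11:87861348-87861523 and, not named above, the 281 bp copy chr11:73206078-73206358, in which ΔcIDR had 26 reads and KO 1. Of the 6, 4 stayed called whichever library was left out.

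Of the copies lower in ΔcIDR than in KO, the chromosome 4 and chromosome 5 copies already described took 3 of the 6 places. The long chromosome 4 copy differed by log2 −3.55 ± 0.42 (SE), limma adjusted p = 5.4e-14, and its ΔcIDR values lay below both WT values too. The 200 bp copy chr7:40812160-40812359, 98.0% of which lay in the interval, had 33.3 and 19.2 units in ΔcIDR, 395.6 and 235.1 in KO and 67.2 and 36.8 in WT (log2 −3.54 ± 0.46 (SE), limma adjusted p = 8.3e-12). KO stood above ΔcIDR and WT, and ΔcIDR below WT, with no overlap. The copies chr10:27687965-27688181 (217 bp) and chr2:168885023-168886120 (1098 bp, at the length peak) changed by log2 −3.12 and −3.82, and both lost the call when 1 library was left out. Intervals covered 65.0% of the 217 bp copy and 18.2% of the 1098 bp copy.

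The interval table gave a second readout of the same places from the same reads. Of the intervals over MaLR copies, 1905 had the mean of 1 unit needed for the test. In KO against WT 15 were higher and 245 lower, 13.6% (11% of all tested intervals were called, 0.985% higher and 10% lower). After centring they were 67 and 157, 11.8% (background 12%, 4.68% higher and 7.28% lower). In ΔcIDR against WT 12 were higher and 3 lower, 0.787% (background 1.13%, 1.04% higher and 0.0874% lower). After centring they were 1 and 3, 0.210% (background 0.305%, 0.167% higher and 0.138% lower). In ΔcIDR against KO 840 were higher and 33 lower, 45.8% (background 48.8%, 47.3% higher and 1.57% lower). After centring they were 290 and 177, 24.5% (background 27.5%, 17.6% higher and 9.92% lower). Except in KO against WT on the deposited scale, these shares lay below the background, unlike those of the copies. Single libraries moved these deposited-scale counts too, and without either KO replicate nearly all ΔcIDR against WT calls were higher in ΔcIDR. For KO against WT they were 510 and 72 with KO replicate 1 or 2 left out and 94 and 54 for WT replicate 1 or 2. For ΔcIDR against WT they were 6 and 2 for ΔcIDR replicate 1 or 2, 282 and 284 for KO replicate 1 or 2 and 4 and 2 for WT replicate 1 or 2. For ΔcIDR against KO they were 407 and 537 for ΔcIDR replicate 1 or 2 and 526 for KO replicate 2. The median interval over a MaLR copy differed by log2 0.76 between ΔcIDR and KO, against 0.79 for all tested intervals. Between ΔcIDR and WT it was 0.39 against 0.46, and between KO and WT −0.40 against −0.35. In both ΔcIDR comparisons these intervals thus lay below all intervals, while the median copy lay above all loci.

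Of the 97 copies called in KO against WT, 93 had a tested interval, and 93 of these intervals differed in the same direction, 84 past the threshold. Both readouts count the same reads, so this is no independent check. In the interval table the place over chr12:105081419-105082241 had 71.6 and 84.5 units in ΔcIDR, 5.34 and 3.36 in KO and 35.2 and 32.4 in WT, on that table's own scale (log2 −2.85 between KO and WT, limma adjusted p = 5.5e-14). The intervals over the chromosome 18 copies that were called lower in ΔcIDR against WT did not pass, with limma adjusted p = 0.074 and 0.15. Across the 1319 copies with both readouts the log2 differences of copy and interval had a Pearson r of 0.88 in KO against WT. It was 0.74 in ΔcIDR against WT and 0.90 in ΔcIDR against KO. These are descriptions across copies that share libraries and reads.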

How the data were processed

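m6A in chromatin-associated RNA was measured in 6 libraries, 2 each of ΔcIDR, KO and WT. The libraries were read as immunoprecipitated, which the columns do not state. Per the labels' protocols, spike-in RNA went into the RNA after rRNA depletion and before fragmentation. GRCm39 and the tools bedtools, featureCounts, MACS2, Picard, SAMtools, HISAT2 and fastp are listed, without roles, in the submitters' processing notes. The deposited values are a signal scaled by the authors to a spike-in (from the values), and 100% of values gave whole reads within a tolerance of 1e-06. Depth was 20922839 to 26267351 reads in repeats per library, and counting intervals cover counting error only.

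Coordinates are as deposited, with starts of repeat loci taken as counted from 1 and of intervals from 0. Counting both interval ends would give 3532 copies. limma 3.58.1 in R 4.3.3, with a mean-variance trend, was fitted to log2(signal + 1) of repeat loci with a mean of at least 20 units, and to log2(signal + 0.5) of intervals with a mean of at least 1 unit, all 6 libraries in 1 fit. For thinly read loci a fold change on this scale can lie below or above the ratio of the group means. edgeR 4.0.16 (quasi-likelihood) ran on the recovered reads. The limma fit was also run on simulated counts with a fixed spread and no shift of all loci between groups. These data differ from that, so the run does not show how often calls are wrong here. Named copies are, per comparison and direction, the 6 with the largest log2 change among those called whose libraries do not overlap (with fewer than 3 such copies, the 3 with the smallest p), the 6 of highest mean signal, the 3 longest, and per length class the 3 of highest signal per kb among those tested. Members and lists were chosen with earlier results of these data known. Same-numbered replicates did not deviate together (correlations of deviations 0.026 for KO and WT, −0.094 for ΔcIDR and WT and −0.031 for ΔcIDR and KO). Alternatives covered the scale between libraries, the test, the pseudocount, the minimum signal, chromosomes 6, 8 and 11, the overlap rule, a replicate block and each library left out. Genome sequence, gene names and input libraries were not used here.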

Additional observations from a re-analysis of the deposited data

How the results depend on the processing

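Limits are set by 2 libraries a group, by a scale that rests on few spike-in reads, and by depth, since only 39.7% of the copies could be tested. None of the calls of named copies turned direction under the alternatives run, but on the ERCC scale the majority of ΔcIDR against KO calls did (93 higher, 261 lower). In ΔcIDR against WT the calls were lower with all libraries and mostly higher when either KO replicate was left out. In KO against WT, 97 copies were called, 127 after centring, 136 scaled to repeat reads outside intervals (49 higher, 87 lower), 128 on the ERCC scale, 93 with edgeR on the deposited scale, 160 with edgeR and TMM (65 higher, 95 lower), 57 with a minimum mean of 5 and 56 among copies at least 50% covered, and 15 to 323 with 1 library left out. In ΔcIDR against WT the 2 calls became 4 after centring, 4 scaled to repeat reads outside intervals, 14 on the ERCC scale, 1 with edgeR, 10 with edgeR and TMM, 0 with a minimum mean of 5, 0 among copies at least 50% covered and 0 to 71 with 1 library left out. In ΔcIDR against KO the 454 calls became 286 after centring, 278 scaled to repeat reads outside intervals (173 higher, 105 lower), 310 with edgeR and TMM (194 higher, 116 lower), 240 among copies at least 50% covered and 111 to 669 with 1 library left out. In centred fits with 1 library left out, chosen after seeing the data, the counts were 47 to 149 for KO against WT, 2 to 8 for ΔcIDR against WT and 125 to 275 for ΔcIDR against KO. With the replicate block the counts were 72, 0 and 372 for KO against WT, ΔcIDR against WT and ΔcIDR against KO. The numbers do not pair the samples, so a call lost this way is not read as a weaker effect. The relative medians ranged over −0.15 to −0.040 for KO against WT, 0.042 to 0.084 for ΔcIDR against WT (0.082 among copies at least 50% covered) and 0.084 to 0.18 for ΔcIDR against KO with 1 library left out. For intervals over MaLR copies, the 260 calls in KO against WT became 165 with the replicate block and 54 to 510 with 1 library left out. The 15 in ΔcIDR against WT became 4 after centring, 4 with the replicate block and 2 to 284 with 1 library left out, and the 873 in ΔcIDR against KO became 467 after centring and 407 to 960. Leaving out 1 library lost 5 to 9 of the named calls. The causes were not tested.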
